A study of Rattus norvegicus with 8 samples.

Results

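Small leucine-rich proteoglycans (SLRPs) are secreted proteins whose core is built of leucine-rich repeats. The members examined were Dcn, Bgn, Aspn, Lum, Fmod, Prelp, Omd, Ogn, Epyc and Podn, chosen by gene family and looked up by symbol, ignoring case, among the 37209 genes of the count table. Of these 10 symbols, 9 had a row. Podn had none, and the row LOC102552895, whose number is the RefSeq gene ID of Podn, was read for it. The mRNA came from carotid arteries of male Sprague-Dawley rats (400 g on average, age not given). In the intimal injury group (n = 4) the left carotid artery had been dilated with a balloon catheter, and it was harvested 2 weeks later. The control group (n = 4) consisted of right carotid arteries without damage, which the study used as self-controls. As self-controls they came from operated animals, and no artery of an untouched animal is among the 8. The extraction text in the labels names the prefrontal cortex, whereas all other labels name the carotid artery.

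SLRPs bind to collagen fibrils and regulate how thick the fibrils become and how they are spaced. Several of them also bind growth factors of the TGF-beta family or cell surface receptors. In the arterial wall they are made by smooth muscle cells and by fibroblasts of the adventitia. Decorin (Dcn) and biglycan (Bgn) carry chondroitin or dermatan sulfate chains, whereas fibromodulin (Fmod) and lumican (Lum) carry keratan sulfate.

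The total count lay between 11459632 and 16658089 per library. Levels are given as CPM (counts scaled for library size with TMM factors), and 3 counts corresponded to 0.169 to 0.246 CPM. They were not divided by transcript length, so they were compared between arteries and not between genes. The contractile smooth muscle markers were present, and 10 of 10 had enough counts for the test. Control artery 4 stood apart from the other controls. Its 9 sympathetic neuron markers summed to 11937 CPM, whereas those of the other controls summed to 6.64 to 11.5 CPM and those of the injured arteries 1 to 4 to 253, 31.9, 3761 and 51.0 CPM. Injured artery 3 therefore stood apart in these markers too. In control artery 4, 8 of the 9 SLRP genes with counts had the lowest level of the 4 controls, and results are also given without control artery 4. Because it was singled out partly by its low SLRP levels, values without it are not independent of the levels they describe. The part of the nerve RNA in these low levels was not tested. In whole arteries, fewer cells of a type and less RNA per cell cannot be told apart.

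Of the 10 SLRP genes, 9 had enough counts for the test, with Podn among them, and 2 of them, Dcn and Ogn, were called, both lower after injury. A gene was called at a false discovery rate (the adjusted p) under 0.05 together with a fold change above 2. Of all 14359 genes tested, 10.9% were called, 8.31% as higher and 2.57% as lower. The median log2 fold change of the 9 genes was -0.19, with 4 above 0 and 5 below, and that of all genes tested was -0.06. None of these 9 genes was called higher by edgeR or by DESeq2. At an unadjusted p under 0.05 the edgeR test had 4 of them, of which 0 were higher. DESeq2 had 5, of which 1 was higher. The share of all genes tested at that unadjusted p is not given, so such counts, here and below, have no background beside them. Without injured artery 3, 0 of these 9 genes were called by edgeR, with Dcn at -1.06 (adjusted p = 0.0646, edgeR) and Ogn at -1.84 (adjusted p = 0.0752, edgeR) on the log2 scale. Of all 14577 genes tested in that fit, 1583 were called. In the plot of levels by artery, the injured values of Dcn, Prelp and Ogn lay below those of control arteries 1 to 3, and the highest Lum values were those of injured arteries.

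**Figure D1:**
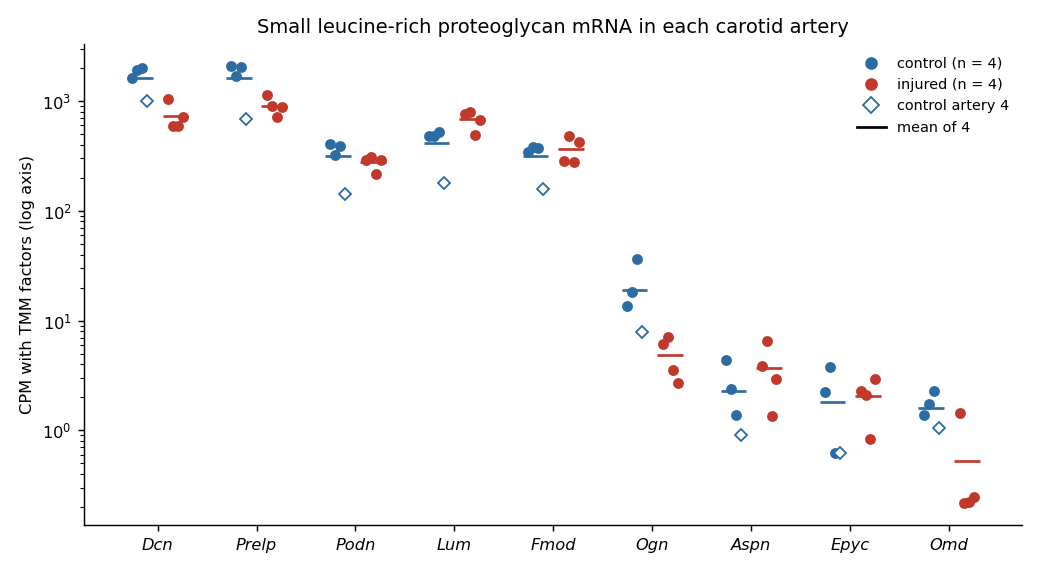
CPM (log axis) of 9 SLRP genes in each control artery (blue) and injured artery (red), with the mean of 4 as a line and control artery 4 as an open diamond. Ogn had no overlap between the groups, at 2.70 to 7.11 CPM after injury against 7.92 to 36.0 CPM. Heights of different genes are not comparable, because counts were not divided by length.

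The class I genes were taken first. Decorin binds collagen, TGF-beta and several receptor tyrosine kinases. Dcn was 1615, 1917, 1993 and 994 CPM in control arteries 1 to 4 and 1048, 592, 591 and 712 CPM in injured arteries 1 to 4. Only control artery 4 lay within the injured range, below injured artery 1. The mean was 1630 ± 455 CPM (SD, n = 4) in the controls and 736 ± 216 CPM (SD, n = 4) after injury. This gave a log2 fold change (95% interval from -1.80 to -0.50) of -1.15, standard error 0.28, and the quasi-likelihood test of edgeR returned an adjusted p of 0.0277. Without control artery 4 the controls averaged 1842 ± 200 CPM (SD, n = 3) and the log2 fold change was -1.33 (adjusted p = 0.00318, edgeR). When each artery was dropped in turn (8 fits), Dcn passed in 2, those without control artery 4 and without injured artery 1, and the adjusted p ranged from 0.00318 to 0.0912. With the replicate number as a block it was not called (log2 fold change -1.14, adjusted p = 0.0852, edgeR).

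Asporin (Aspn) binds collagen and TGF-beta and carries an aspartate-rich stretch in place of sugar chains. Its counts were low, at 61, 29, 20 and 13 in control arteries 1 to 4 and at 65, 90, 24 and 36 in injured arteries 1 to 4. The ranges overlapped, and the log2 fold change of 0.70 had a 95% interval from -0.67 to 2.06 (adjusted p = 0.47, edgeR). It was 1.23 without control artery 1 and 0.27 without injured artery 2.

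Biglycan, the closest relative of decorin, was listed at 0 in all 8 libraries. The gene lies on the X chromosome. Of the 606 protein-coding genes that the GRCr8 annotation places there and that matched by symbol, 592 (97.7%) were at 0 in every library. On chromosomes 1 to 20 the share was 9.62%, and it lay between 4.61% and 15.1% on single chromosomes. Other X-linked genes of the lists used here, among them Nyx, Chst7 and Tnmd, were at 0 too. The 0 was therefore not read as a level of Bgn, and neither a limit nor a fold change is given for it.

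**Figure D2:**
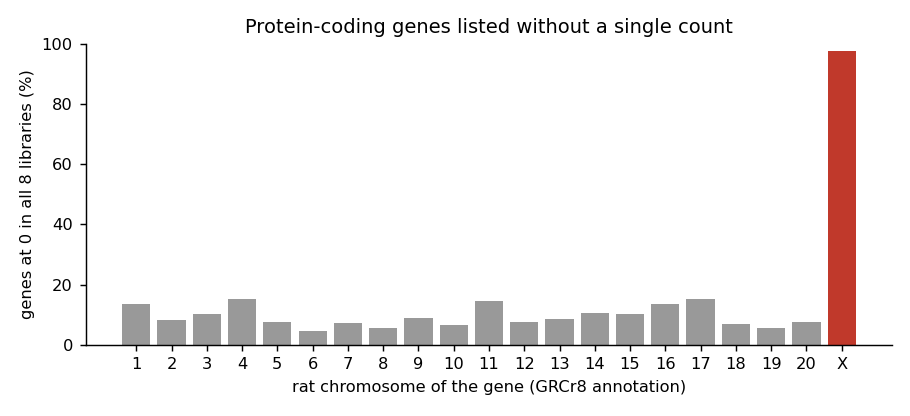
Share of protein-coding genes with 0 counts in all 8 libraries (vertical axis, %) by rat chromosome (horizontal axis). The X chromosome, which holds Bgn, stood at 97.7%, and the highest other chromosome at 15.1%.

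The class II genes had log2 fold changes of both signs, and none of the 4 was called with all arteries. Lumican regulates fibril spacing and is known for the transparency of the cornea. Lum was 484, 484, 523 and 181 CPM in control arteries 1 to 4 and 759, 803, 488 and 672 CPM in injured arteries 1 to 4. Injured artery 3 lay within the range of control arteries 1 to 3, and the other 3 injured arteries lay above every control. The mean was 418 ± 159 CPM (SD, n = 4) in the controls and 680 ± 139 CPM (SD, n = 4) after injury. At 0.70 on the log2 scale (standard error 0.33, adjusted p = 0.194, edgeR), Lum was not called. Without control artery 4 it was 0.45 (adjusted p = 0.0802, edgeR).

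Fibromodulin binds collagen near the sites where lysyl oxidase cross-links it. Fmod was 340, 384, 372 and 159 CPM in control arteries 1 to 4 and 282, 479, 281 and 425 CPM in injured arteries 1 to 4. The injured arteries lay on both sides of control arteries 1 to 3. Fmod had a log2 fold change of 0.22 with a 95% interval from -0.49 to 0.94 (adjusted p = 0.664, edgeR). Without control artery 4 it was 0.00042, with an interval from -0.47 to 0.47 (adjusted p = 0.999, edgeR). Changes of 2-fold lay outside the interval in both fits.

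Prelp encodes a protein with a basic N-terminal region that binds heparan sulfate and collagen near basement membranes. It was 2093, 1701, 2025 and 691 CPM in control arteries 1 to 4 and 1133, 908, 709 and 882 CPM in injured arteries 1 to 4. Control artery 4 lay below every injured artery, whereas control arteries 1 to 3 lay above all of them. At -0.84 on the log2 scale (standard error 0.34, adjusted p = 0.135, edgeR), Prelp was not called. Without control artery 4 Prelp was called at -1.10 (standard error 0.17, adjusted p = 0.0024, edgeR). The controls then averaged 1939 ± 210 CPM (SD, n = 3) and the injured arteries 908 ± 174 CPM (SD, n = 4).

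Omd encodes osteomodulin, which is best known from bone and tooth. It had 19, 21, 33 and 15 counts in control arteries 1 to 4 and 24, 3, 4 and 3 counts in injured arteries 1 to 4. Injured arteries 2, 3 and 4 were at the level of 3 or 4 counts, while injured artery 1 lay among the controls. The log2 fold change of -1.55 was not called (standard error 0.66, adjusted p = 0.154, edgeR). Only dropping injured artery 1, among the 8 arteries dropped in turn, made Omd pass, at -2.76 on the log2 scale (adjusted p = 0.00853, edgeR).

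Among the class III genes, osteoglycin (Ogn), also called mimecan, is a matrix protein of vessels and bone. Ogn was 13.6, 18.4, 36.0 and 7.92 CPM in control arteries 1 to 4 and 6.10, 7.11, 3.54 and 2.70 CPM in injured arteries 1 to 4. It was the only one of the 9 genes whose groups did not overlap with all 8 arteries, lower after injury, a pattern that 9.51% of all genes tested showed. The opposite pattern, higher in every injured artery, was found in 0 of these 9 genes and in 14.2% of all genes tested. The mean level of Ogn was 19.0 ± 12.1 CPM (SD, n = 4) in the controls and 4.86 ± 2.08 CPM (SD, n = 4) after injury. Ogn changed by -1.96 on the log2 scale (standard error 0.51, adjusted p = 0.0332, edgeR), the lowest of the 9 genes tested. Without control artery 4 it was -2.22 (adjusted p = 0.00672, edgeR), and no other single artery, when dropped, left Ogn called (adjusted p from 0.00672 to 0.0993 over 8 fits). Without control artery 3, which had the highest level, it was -1.45. With the replicate number as a block Ogn was not called (log2 fold change -1.83, adjusted p = 0.0606, edgeR).

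Epyc, which encodes epiphycan of growth plate cartilage, had 31, 46, 9 and 9 counts in control arteries 1 to 4 and 38, 29, 15 and 36 counts in injured arteries 1 to 4. The groups overlapped, and the log2 fold change of 0.17 had a 95% interval from -1.32 to 1.66 (adjusted p = 0.882, edgeR).

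Podocan (Podn), first described in the kidney glomerulus, was read from LOC102552895. It was 406, 323, 388 and 144 CPM in control arteries 1 to 4 and 290, 310, 218 and 289 CPM in injured arteries 1 to 4. The injured arteries lay below control arteries 1 to 3 and above control artery 4. Podn had a log2 fold change of -0.19 with a 95% interval from -0.89 to 0.52 (adjusted p = 0.714, edgeR), and without control artery 4 it was -0.43 (adjusted p = 0.0533, edgeR).

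Without control artery 4, edgeR called 3 of the 9 SLRP genes tested, Dcn, Prelp and Ogn, all lower. The fit dropped an artery with low levels of these same genes. In that fit 3.94% of all genes tested were called lower and 12.3% higher. Dcn, Prelp, Ogn and Podn, 4 of the 9 genes tested, then lay lower in every injured artery than in every control, which 18.5% of all genes tested did.

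**Figure D3:**
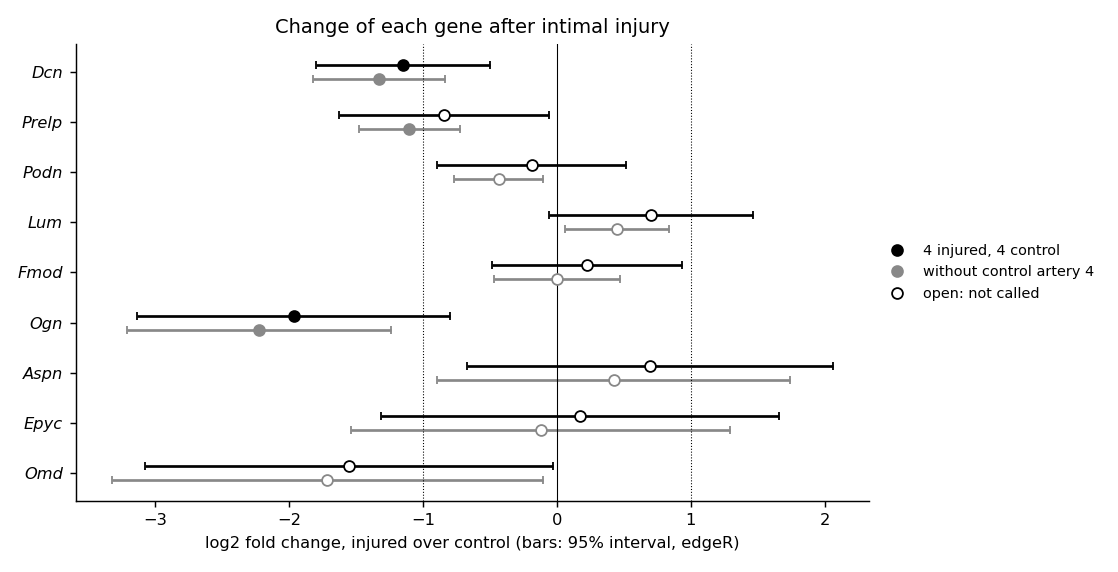
log2 fold change of injured over control arteries (horizontal axis) with its 95% interval for 9 SLRP genes, with all 8 arteries (black) and without control artery 4 (grey). Filled points were called and dotted lines mark a 2-fold change. Dcn and Ogn were called in both fits, at -1.15 and -1.96 with all arteries, and Prelp only without control artery 4.

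The counts of 2 genes of the same library can be divided by each other without any scaling, which shows the make-up of the family in each artery. Of the 36 pairs among the 9 genes with counts, 14 (38.9%) had ratios that did not overlap between the groups, both with and without control artery 4. Of the 98511666 pairs of tested genes with a count in every library, 25.0% did not overlap. Pairs share genes, so they are not independent, and no test was made.

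Lum was higher relative to Dcn in each injured artery than in any control. The ratio of Lum to Dcn counts was 0.300, 0.252, 0.262 and 0.182 in control arteries 1 to 4 and 0.724, 1.36, 0.826 and 0.944 in injured arteries 1 to 4. Control artery 4 was the lowest control here and lay farthest from the injured arteries. The ratio of Lum to Podn lay between 1.19 and 1.497 in the controls and between 2.24 and 2.62 after injury, and that of Lum to Prelp between 0.231 and 0.284 against 0.670 to 0.884. Fmod relative to Prelp was also higher, at 0.249 to 0.528 after injury against 0.162 to 0.230. In contrast, Prelp relative to Podn was nearly constant among the controls, at 4.81 to 5.26 with control artery 4 included, and was 2.93 to 3.91 after injury. Dcn relative to Prelp overlapped between the groups, at 0.771 to 1.44 in the controls and 0.652 to 0.925 after injury. Together, the 9 genes took 0.438% to 0.506% of all counts in control arteries 1 to 3, 0.215% in control artery 4 and 0.245% to 0.380% in the injured arteries.

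**Figure D4:**
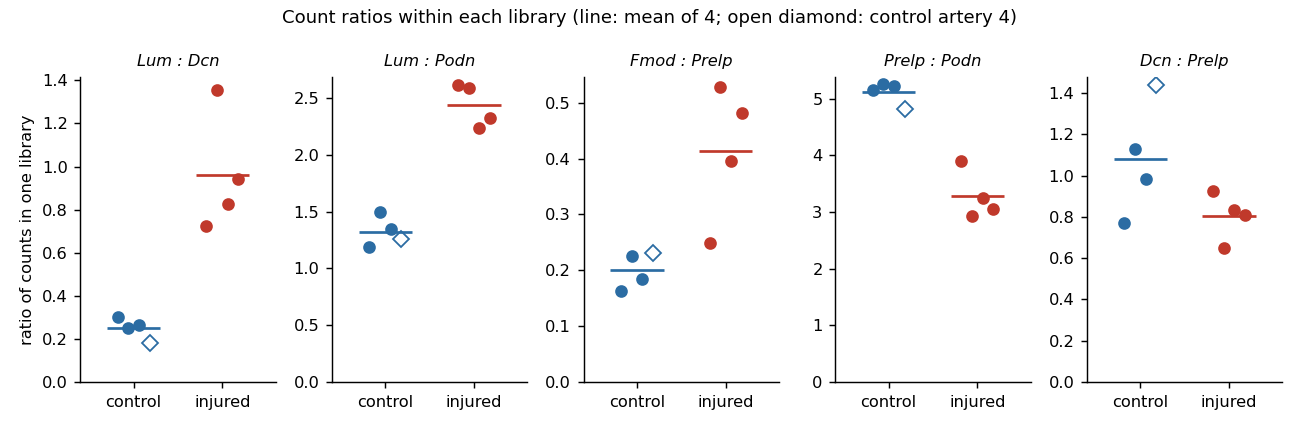
Ratio of the counts of 2 SLRP genes within each library (vertical axis, from 0) for 5 pairs, in control (blue) and injured (red) arteries, with the mean of 4 as a line and control artery 4 as an open diamond. Lum to Dcn was at most 0.300 in the controls and at least 0.724 after injury, while Dcn to Prelp overlapped.

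Most SLRP genes lie side by side in the genome. Among the protein-coding genes of the GRCr8 annotation, Dcn, Lum, Kera and Epyc follow each other on chromosome 7 with 0 genes between them. Thus the neighbours Dcn and Lum had log2 fold changes of opposite sign. Optc, Prelp and Fmod follow each other on chromosome 13, again with 0 genes between them. Ogn, Omd and Aspn follow each other on chromosome 17, and Ecm2 comes after 1 other gene. Ogn and Omd both had negative log2 fold changes, while that of Aspn was positive, and only Ogn of these 3 was called.

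The promoters of Lum, Ogn and Omd are shown as those of the gene with the highest log2 fold change and of a neighbouring pair with negative ones. RefSeq promoters of the GRCr8 build were found for 7 of the 10 SLRP genes, and each covers 250 bases before the start of the transcript and 50 after it. Capitals mark matches, on either strand, to the TATA box motif TATAAA or to the core motif that Smad proteins are known to bind, CAGAC. The windows were also searched on both strands for the motif of AP-1, which was written as TGANTCA, for the E box that many helix-loop-helix proteins recognise, written as CACGTG, and for the CArG box. The windows are chr7:34245456-34245755 on the plus strand for Lum, chr17:15258946-15259245 on the minus strand for Ogn and chr17:15274821-15275120 on the minus strand for Omd.
Lum: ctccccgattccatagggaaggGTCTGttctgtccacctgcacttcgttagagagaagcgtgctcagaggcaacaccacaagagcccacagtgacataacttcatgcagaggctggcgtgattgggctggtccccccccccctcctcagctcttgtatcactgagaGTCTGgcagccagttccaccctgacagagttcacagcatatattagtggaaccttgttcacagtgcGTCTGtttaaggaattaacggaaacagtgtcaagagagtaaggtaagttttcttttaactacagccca
Ogn: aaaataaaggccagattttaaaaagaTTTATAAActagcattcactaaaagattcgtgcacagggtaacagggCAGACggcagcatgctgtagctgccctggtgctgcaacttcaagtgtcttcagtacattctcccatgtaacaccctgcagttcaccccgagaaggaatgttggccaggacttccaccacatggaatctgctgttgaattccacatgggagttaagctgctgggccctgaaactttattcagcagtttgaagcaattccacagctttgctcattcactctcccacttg
Omd: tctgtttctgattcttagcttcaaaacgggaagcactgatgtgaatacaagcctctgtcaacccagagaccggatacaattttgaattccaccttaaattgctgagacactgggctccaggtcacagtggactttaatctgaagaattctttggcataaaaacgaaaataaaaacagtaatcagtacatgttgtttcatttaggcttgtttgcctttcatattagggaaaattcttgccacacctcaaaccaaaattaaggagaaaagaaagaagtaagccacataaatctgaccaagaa

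The Lum window held CAGAC or its reverse complement 3 times and the Ogn window 1 time, whereas 50.1% of all 33469 promoters held it at least once. TATAAA was matched 2 times in Ogn, once on each strand in overlapping positions far from the start, and 14.2% of all promoters held it. No window of these 3 matched AP-1, E box or CArG, which were found in 7.33%, 6.42% and 1.64% of all promoters. The Omd window matched none of the motifs searched. A match is a run of letters and was not tested for binding.

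The 5 genes whose log2 CPM ran most like that of Lum over the 8 arteries, among 10265 genes with an average log2 CPM of at least 3, were LOC684122, Pld2, Rbm33, Dpp7 and Pnrc2, with a Pearson correlation between 0.990 and 0.993 and log2 fold changes between 0.28 and 0.55. For Ogn they were Mtmr3, Zfp639, Chd9, Yipf4 and Rcn2, with correlations between 0.954 and 0.977 and log2 fold changes between -0.42 and -0.21. The arteries fall into 2 groups and share their libraries, so these values describe likeness only.

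Of 9 further family members, 5 had enough counts for the test and 1 was called, higher. This was Podnl1, a relative of podocan, with 0, 0, 1 and 0 counts in control arteries 1 to 4 and 18, 142, 56 and 40 counts in injured arteries 1 to 4. It passed the filter through the injured arteries alone, so its call is given as a description. With a minimum of 10 counts in each library 4 genes of this list were tested and 0 called. Of all 12334 genes tested with that minimum, 1007 were called. Tsku, Chadl, Optc and Ecm2 had log2 fold changes of 0.63, 0.89, -0.53 and -0.28 and were not called. Chad, Kera and Nepn had too few counts for the test, and Nyx is among the X-linked genes at 0.

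Around the SLRPs, 4 further lists hold related genes. The first 3 cover the genes that build SLRP sugar chains, the collagens and the enzyme lysyl oxidase (Lox), and the proteases that process or cut SLRPs. The last holds receptors and growth factors that SLRPs bind and signaling genes linked to them. Together with the other SLRP genes, 82 listed genes were tested, of which 18 were called higher and 2 lower. In the same fit with all 8 arteries, 8.31% of all genes tested were called higher and 2.57% lower. These are the shares to set beside each list below, whereas counts from other fits have their own background. The enzymes for chondroitin, dermatan and keratan sulfate chains had 0 called of 27 tested and a median log2 fold change of 0.04. At an unadjusted p under 0.05 there were 5 of them, and DESeq2 called 1. With control artery 4 left out, edgeR called 4 of 27, and without injured artery 1 it called 1. Over all genes, DESeq2 called 2150 of 16652 tested, and edgeR 2398 of 14758 without control artery 4 and 1335 of 14548 without injured artery 1. Csgalnact1, which starts chondroitin chains, and B3gnt2, which extends the sugar backbone of keratan sulfate, reached adjusted p of 0.0351 and 0.0256 (edgeR) with log2 fold changes of 0.73 and -0.61, under the 2-fold limit. B3gnt7 of the same list went the other way from B3gnt2, at 1.23 on the log2 scale, and was not called (adjusted p = 0.0529, edgeR). These genes were picked out with their values known.

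Of the 15 collagens and partners, 4 were called higher and 0 lower, with a median of 0.46. Only 2 were called without control artery 2, without injured artery 2 or without injured artery 4. Over all genes tested, these fits called 1294 of 14925, 1154 of 14760 and 1142 of 14757. Among the 4 called with all arteries, the largest log2 fold changes were those of Col11a1 at 3.78, Col12a1 at 3.09 and Col5a3 at 1.599. These belong to minor fibril collagens or decorate fibril surfaces. The main fibril collagens Col1a1, Col1a2 and Col3a1 had -0.22, -0.64 and -0.16 and were not called. Of 13 proteases and enhancers tested, 6 were called higher and 1 lower, with a median of 0.56. Mmp12 had 1 to 3 counts in the controls and 339 to 1258 after injury, and Mmp9 had 0 to 4 and 51 to 374, so both passed the filter through the injured arteries alone. Adamts4, which cuts aggrecan and can cut SLRPs, stood at 2.59 on the log2 scale (standard error 0.42, adjusted p = 0.00504, edgeR). Pcolce2, an enhancer of procollagen processing, was the gene called lower, at -2.08.

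Of the 22 receptors and growth factors, 7 were called higher and 1 lower, with a median of 0.85. The largest log2 fold changes among those called were those of Nlrp3 at 2.54, Tlr2 at 2.30 and Kdr at 2.03. Nlrp3 is the inflammasome sensor inside the cell and is listed as a signaling gene, not as a binding partner. Tlr2 is a receptor that biglycan can engage, and Kdr is a VEGF receptor that decorin can bind. Bmp4 was the one called lower, with a log2 fold change of -1.67. Binding of SLRPs to these proteins was not measured.

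**Figure D5:**
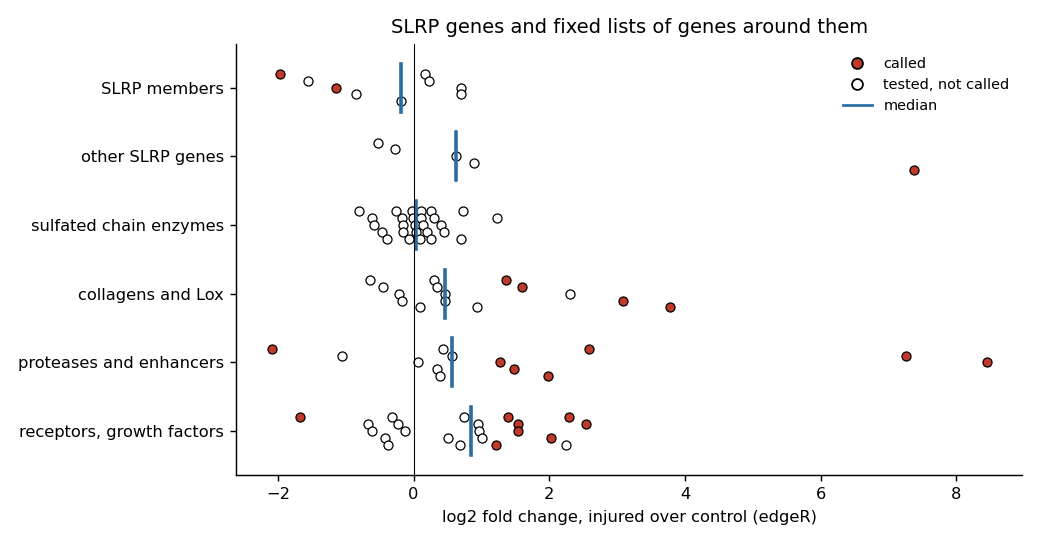
log2 fold change of injured over control arteries (horizontal axis) for each tested SLRP gene and each tested gene of 5 lists, with called genes in red and the median as a blue line. The median was -0.19 for the SLRP genes, 0.04 for the sulfated chain enzymes and 0.85 for the receptors and growth factors.

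Of the marker lists for cells that an artery can hold, some moved with the injury as well, while others had few or no called genes. The shares of all genes tested that were called higher and lower were 8.31% and 2.57%. The 10 contractile smooth muscle markers summed to 38653 to 52443 CPM in control arteries 1 to 3, 18086 CPM in control artery 4 and 10872 to 17148 CPM in the injured arteries, and 7 of 10 were called lower. The 10 adventitial fibroblast markers summed to 2028 to 2098, 1117 and 1460 to 2523 CPM in the same order, and 2 were called higher and 1 lower. All 10 macrophage markers were called higher, from sums of 210.1 to 299 CPM in the controls to 1866 to 2774 CPM. Of the endothelial markers, 3 of 10 were called higher and 1 lower, and of the T cell markers 2 of 7 tested higher. Skeletal muscle markers were called higher for 7 of 9 and cartilage markers for 4 of 6 tested, with cartilage sums of 17.4 to 27.7 CPM in the controls and 126 to 411 CPM after injury. Of the tendon markers 1 of 2 tested was called higher, of the adipocyte markers 1 of 6 was called lower, and 0 of 7 Schwann cell and 0 of 7 sympathetic neuron markers were called by edgeR. Matn1 of the cartilage list and the X-linked Tnmd of the tendon list were at 0 in every library. The part of these cells in the SLRP levels was not tested.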

How the data were processed

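mRNA was sequenced from 4 injured and 4 contralateral carotid arteries. The authors deposited raw counts per gene symbol without normalization. HISAT2 2.0.4 is named in the submitters' processing notes, and the counting tool, genome build, annotation and strand setting are not given in the sources used here. Genes that overlap or have near-identical copies are therefore uncertain. Each of the 8 columns was matched to its artery through the labels.

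Genes with too few counts were removed with filterByExpr, and counts were scaled with TMM factors and compared between injured and control arteries with the quasi-likelihood test of edgeR 4.0.16 in R 4.3.3, fitted over all genes without a covariate and adjusted with the Benjamini-Hochberg method. Standard errors come from the F statistic and 95% intervals from its degrees of freedom. Genes were called at FDR under 0.05 and fold change above 2, the study's criteria for DESeq. log2 CPM used a prior count of 2. The alternatives were DESeq2 1.42.0, other scaling factors, other filters, the replicate number as a block, other call rules and each artery left out in turn.

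All 10 SLRP genes are named. Of each list, the called genes with the 3 largest absolute log2 fold changes are named, and the genes most like Lum and Ogn, which had the highest and lowest log2 fold change. The SLRP genes and those of the lists and markers were matched by symbol (184 genes), by LOC and RefSeq gene ID (3 genes, with Podn among them) or by synonym (3 genes). The members and lists were chosen with earlier results of these data known. The labels do not say whether arteries of the same number came from the same rat, and the main fit treats all arteries as independent. The p-values weigh the difference between the groups against the spread between these arteries. Counting limits cover counting error only. One marker gene is not reported here.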

Additional observations from a re-analysis of the deposited data

Results flagged for a closer look

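Over 22 groups of 4 arteries (9 SLRP genes, their summed level and the ratio of Lum to Dcn, in each group), the gap between an extreme artery and its neighbour was divided by the whole range and compared with Dixon's 95% critical value. In 3 groups it was larger, where chance in independent groups gives about 1 in 20, or 1.1. The groups are not independent, because they share arteries, and the summed level and the ratio reuse the same genes. The count of 3 can therefore not be judged against 1.1. Lum and the summed level were flagged through the same artery, control artery 4. Lum in the controls gave 0.886, with control artery 4 at 181 CPM and the other controls at 484 to 523 CPM. The summed level in the controls gave 0.84, with control artery 4 at 2178 CPM against 4835 to 5341 CPM. Omd in the injured arteries gave 0.977, with injured artery 1 at 1.44 CPM and the others at 0.218 to 0.245 CPM, or 24 counts against 3, 4 and 3.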

How the results depend on the processing

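Of the 9 SLRP genes with counts, 2 were called with all 8 arteries, and 2 with DESeq2, with RLE factors, without a filter, with a minimum of 10 counts per library or by the FDR alone. Over all genes tested, the main fit called 1562 of 14359, DESeq2 2150 of 16652 and RLE factors 1566 of 14359. Without a filter 1495 of 23447 were called, with the minimum of 10 counts 1007 of 12334 and by the FDR alone 2468 of 14359. With upper-quartile factors 1 SLRP gene was called (Ogn, while Dcn had adjusted p = 0.0529, edgeR), and with library totals only 1 (Ogn, Dcn having a log2 fold change of -0.96). That scaling moved the median of all genes by 0.175 on the log2 scale. Over all 14359 genes, upper-quartile factors called 1556 and library totals only 1673. In the edgeR test against a fold change of 2, 0 SLRP genes were called (1 at an unadjusted p under 0.05), and 661 of all 14359 genes. With each artery left out in turn 0 to 3 SLRP genes were called, 3 without control artery 4, 2 without injured artery 1 and 0 in each of the other fits. Over all genes, these fits called from 1142 of 14757 (without injured artery 4) to 2398 of 14758 (without control artery 4). DESeq2 gave adjusted p of 0.000547 for Dcn and 0.000633 for Ogn. The replicate block called 0 of the 9 SLRP genes (3 at an unadjusted p under 0.05 in edgeR) and 19 of the listed genes, against 20. Over all 14359 genes it called 1187, against 1562 in the main fit. The correlation of the deviations of control and injured arteries with the same number was 0.301, 0.45, -0.52 and -0.416. Control artery 4 and injured artery 3 stood apart and carry different numbers, so these values cannot show whether the numbers pair the arteries. The main fit assumed no pairing. Of the listed genes, 10 passed the test against 2-fold, and with each artery left out in turn between 16 and 27 were called. The log2 fold change of Epyc changed sign with arteries left out (-0.12 to 0.80), and that of Podn with library totals only (0.0018). The minimum of 10 counts left Omd and Epyc untested. For each of these shifts the cause was not tested. Depth limits Omd, Aspn and Epyc, with 3 to 90 counts per library.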
